A study of Mus musculus with 8 samples.

Results

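Gene deserts, the long stretches of the genome without protein-coding genes, held 825 CTCF regions that were found both in unstimulated and in NMDA-stimulated mouse cortical neurons. A region of the NMDA list counted as one of them if it overlapped a region of the control list by at least 1 bp and if its summit, the position of highest signal, lay at least 200 kb from every protein-coding gene span. They were 825 of the 30570 shared regions and of the 36186 NMDA regions on the assembled chromosomes. Below they are called shared desert regions, and the 29745 shared regions nearer to a gene, or inside one, are called the other shared regions.

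The study used chromatin immunoprecipitation with sequencing (ChIP-seq) to map CTCF in wild-type primary cortical neurons from Swiss-Webster mouse embryos of embryonic day 16, on day 13 in vitro. Control cultures were compared with cultures given 50 µM NMDA, an agonist of NMDA-type glutamate receptors, for 10 minutes and left to recover for 50 minutes. The 8 samples formed 4 groups of 2 replicates: immunoprecipitate and input of each condition. The authors deposited 1 list per condition of regions reproducible over both replicates, so differences between conditions could not be set against replicate spread. Intervals are 95% and cover counting error only, over regions that are not independent of each other, and sequencing depth is unknown. A culture protocol common to every sample also names etoposide, a topoisomerase inhibitor, although no sample carries it as its treatment. Region lists hold no marker genes by which the labelled cell type could be checked.

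CTCF is a DNA-binding protein with an array of zinc fingers. Where it sits, it can halt the loop extrusion carried out by cohesin, and pairs of such sites in facing orientation often form the anchors of chromatin loops and the borders of topological domains. Gene deserts often flank genes of development and of the nervous system, and many hold distant enhancers and long noncoding RNA (lncRNA) genes.

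The summits of 11 shared desert regions fell inside the start window of a lncRNA gene, 250 bases before to 50 after the annotated start, and 5 of these windows are shown. Sequences are from RefSeq, build GRCm38.p6, and are written 5′ to 3′ on the strand of the gene. Capitals mark the letters AGNGGGNGC, a short form of the CTCF core motif, read on either strand. The first 3 are all those that hold the motif, Gm13652 carried the strongest CTCF signal of the 11 and Firre was the window on chromosome X.
1700007F19Rik: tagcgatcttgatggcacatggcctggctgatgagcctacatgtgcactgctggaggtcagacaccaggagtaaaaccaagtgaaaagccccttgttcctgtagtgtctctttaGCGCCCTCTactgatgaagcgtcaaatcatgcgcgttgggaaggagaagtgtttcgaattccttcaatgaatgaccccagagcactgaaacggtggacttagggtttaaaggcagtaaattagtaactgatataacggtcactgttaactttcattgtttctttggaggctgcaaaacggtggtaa
Mir100hg: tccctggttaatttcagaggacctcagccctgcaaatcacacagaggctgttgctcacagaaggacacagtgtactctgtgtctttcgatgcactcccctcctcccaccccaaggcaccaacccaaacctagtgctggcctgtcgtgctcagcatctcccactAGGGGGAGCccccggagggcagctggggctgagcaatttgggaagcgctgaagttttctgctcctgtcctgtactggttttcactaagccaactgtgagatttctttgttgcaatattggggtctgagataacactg
4930471G24Rik: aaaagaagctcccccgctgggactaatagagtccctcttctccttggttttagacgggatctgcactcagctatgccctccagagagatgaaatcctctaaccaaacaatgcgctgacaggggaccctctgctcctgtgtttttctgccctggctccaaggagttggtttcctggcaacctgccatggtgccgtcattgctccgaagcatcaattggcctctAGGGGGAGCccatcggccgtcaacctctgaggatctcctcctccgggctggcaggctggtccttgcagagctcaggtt
Gm13652: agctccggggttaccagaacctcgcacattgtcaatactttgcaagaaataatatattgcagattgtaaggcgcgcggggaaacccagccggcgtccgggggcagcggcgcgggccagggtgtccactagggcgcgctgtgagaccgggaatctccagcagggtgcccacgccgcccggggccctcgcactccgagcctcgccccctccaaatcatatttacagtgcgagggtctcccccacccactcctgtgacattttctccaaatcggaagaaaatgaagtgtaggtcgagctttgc
Firre: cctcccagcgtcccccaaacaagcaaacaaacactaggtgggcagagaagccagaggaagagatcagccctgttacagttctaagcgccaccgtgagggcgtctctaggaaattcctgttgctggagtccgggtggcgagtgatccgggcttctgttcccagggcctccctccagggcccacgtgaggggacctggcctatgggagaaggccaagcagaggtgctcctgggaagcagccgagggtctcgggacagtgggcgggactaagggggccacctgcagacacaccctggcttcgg
The 1700007F19Rik window (chr3:58163758-58164057, minus strand) held the motif at positions 115 to 123 counted from the window's 5′ end, as its reverse complement, and the CTCF summit at position 134. The Mir100hg window (chr9:41474643-41474942, plus strand) held it at 164 to 172, with the summit at 162. The 4930471G24Rik window (chr13:47667300-47667599, plus strand) held it at 223 to 231, with the summit at 207. In these 3 windows the summit therefore lay close beside the motif. Gm13652 (chr2:75137926-75138225, minus strand) and Firre (chrX:50635272-50635571, minus strand), a lncRNA gene known for its part in nuclear organisation, did not hold these letters, with summits at 110 and 45. The short motif was chosen after the windows had been seen. It was present in 8.28% of all 32817 start windows and in 29.8% of the 1776 windows with the summit of any shared region, and a match is only a description of the letters. A longer form (CCA, 2 free bases, AG, 2 free bases, GGC), on either strand, was in 0 of the 11 windows, in 13.5% of the 1776 and in 2.43% of all. Variants of these letters were not searched for, so a window without either form may still hold a CTCF-like sequence.

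CTCF signal is given as the authors' −log10 p of each region, and as its percentile within its own list because the values of the 2 lists are not on a common scale. At the Mir100hg window, in the host gene of a microRNA cluster, the NMDA value was 462, made up of 231 in the first and 232 in the second replicate column, and the control value was 665. Those values stood at percentiles 95.5 and 94.5. Gm13652 had an NMDA value of 550 (310 and 240) and a control value of 1032, at percentiles 97.2 and 98.0. Both sites were thus near the top of both lists. The 1700007F19Rik site was at 251 (78.9 and 172) with NMDA and 270 in control, and the 4930471G24Rik site at 201 (133 and 67.6) and 251. The Firre site was weaker, at 56.4 (31.6 and 24.8) and 169, or percentiles 35.3 and 50.7.

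Shared CTCF regions were sparse in the deserts. Desert sequence, counted between genes only, made up 518 Mb or 19.5% of the 2656 Mb spanned by genes and the stretches between them, and held 824 regions, 2.70% of the shared regions there. That was 1.59 regions per Mb (exact Poisson interval 1.48 to 1.70), against 13.9 per Mb (13.7 to 14.1) in the rest, a density 8.74-fold (8.16 to 9.38) higher outside the deserts. Expressed as a spacing, there was 1 shared region per 629 kb of desert and 1 per 71.9 kb elsewhere. The remaining desert region lay before the first gene of chromosome 13 and has no place in these densities. Assembly gaps were not known and not subtracted, and it was not examined where reads can be placed uniquely. The lengths, here and below, may thus include sequence in which no region could be found, and an empty stretch need not lack CTCF.

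The density went down with each step away from genes. It was 26.1 per Mb from 1 bp to 10 kb outside a gene, 11.1 from 10 to 50 kb, 6.24 from 50 to 100 kb and 3.63 from 100 to 200 kb. Within the deserts it was 2.05 per Mb (1.89 to 2.22, 613 regions) at 200 to 500 kb, 1.11 (0.951 to 1.29, 168 regions) at 500 kb to 1 Mb and 0.633 (0.458 to 0.853, 43 regions) beyond 1 Mb. The intervals of the 3 desert classes did not overlap. NMDA-only regions thinned out along the same steps, from 3.64 per Mb just outside genes to 0.221 beyond 1 Mb, so the decline was not limited to shared regions. The median shared desert region lay 339 kb from the nearest gene, and the farthest 2.19 Mb.

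**Figure D1:**
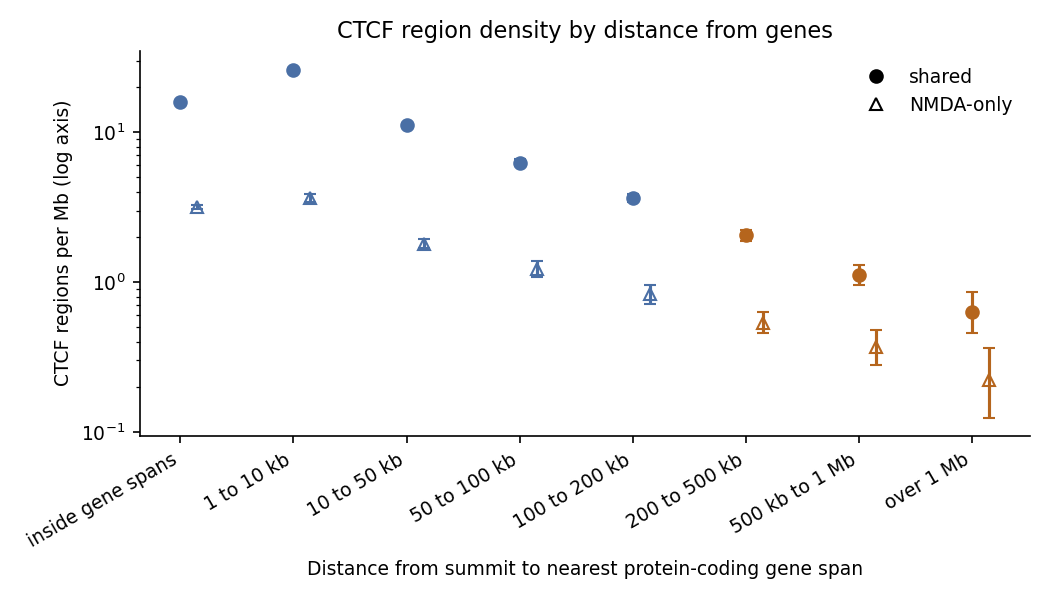
Number of CTCF regions per Mb (log axis) by distance from the summit to the nearest protein-coding gene span, for shared regions and for NMDA-only regions. Bars are exact Poisson 95% intervals, and the densities fall from 26.1 shared regions per Mb within 10 kb of a gene to 0.633 beyond 1 Mb.

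At the distance threshold, 53 NMDA regions lay 200 to 210 kb from a gene and 41 of them were shared. Just short of it, at 190 to 200 kb, 55 of 65 were shared. The 41 had a median NMDA percentile of 47.3 and a median width of 1018 bp, and the 55 had 56.8 and 1117 bp.

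Chromosome 2 held the most shared desert regions, 69, or 2.61 per Mb of desert, and the density was 15.2 per Mb in its other parts. Chromosomes 1 (61), 3 (60), 4 and 12 (59 each) followed. Chromosome 17 had the lowest autosomal density, 0.913 per Mb with 13 regions, although the rest of that chromosome had 16.99 per Mb. Chromosome X held 13 in 35.2 Mb of desert, 0.370 per Mb, and had 4.85 per Mb elsewhere, while none was found in the 25.8 Mb of desert on chromosome Y, where the rest held 0.0770 per Mb. Low desert counts on the sex chromosomes therefore went with low counts near genes too.

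Shared desert regions were far apart but not evenly so. The nearest other shared region was a median of 117 kb away (interval 102 to 131, quartiles 31.1 and 241 kb), against 12.97 kb for the other shared regions. No other shared region lay within 100 kb of 445 of the 825 (53.9%), compared with 5.35% of the others, a difference of 48.6 percentage points (Newcombe interval 45.2 to 52.0). At the other end, 116 (14.1%) had a neighbour within 10 kb, against 42.6% of the others. Neighbours within the same desert were separated by a median of 106 kb over 450 intervals, from 866 bp to 2.60 Mb. Tight groups and isolated regions were thus both present.

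A gap between neighbouring genes has to be at least 400 kb long to hold a shared desert region, and 867 gaps were. Of these, 374 (43.1%) held at least 1 such region and 493 held none. On the autosomes 363 of 722 gaps (50.3%) held one, against 11 of 71 on chromosome X and 0 of 74 on Y. There were 175 gaps with 1 region, 80 with 2 and 119 with 3 or more, and the last of these contained 489 regions, 59.3% of those between genes. Gaps with a region had a median length of 1032 kb and gaps without one 600 kb. Across the 867 gaps, the number of regions rose with the length beyond 200 kb from both flanking genes, called the core below (Spearman correlation 0.50, a description only, since a longer core has more room). Length did not settle the count: of 158 cores over 1 Mb, 40 held no shared region, 12 of these on chromosome X and 3 on Y.

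**Figure D2:**
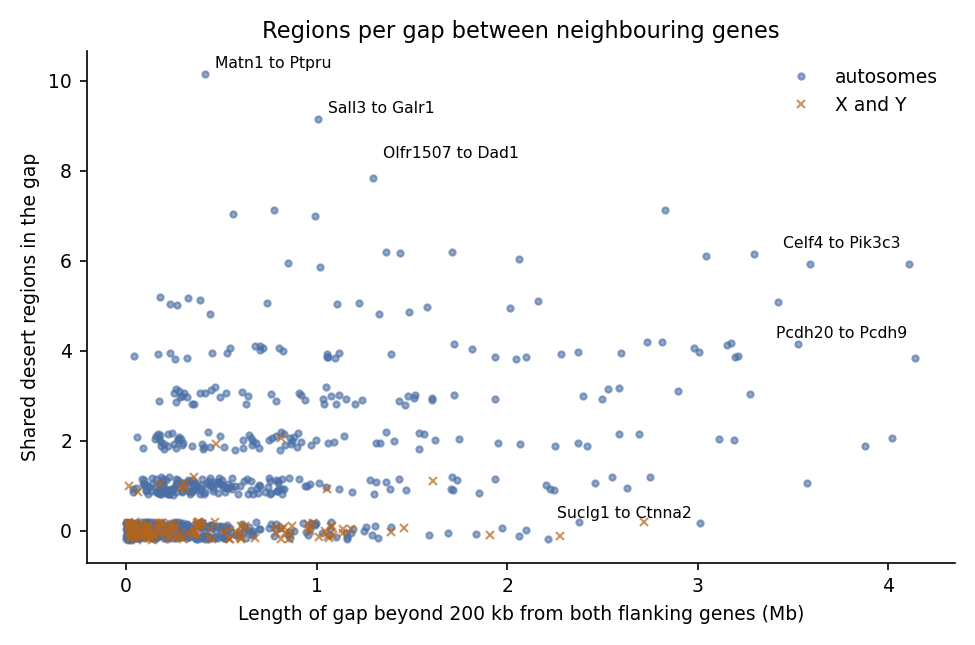
Number of shared desert regions in each gap (vertical axis, spread slightly so that points can be told apart) against the length of the gap's core in Mb, 1 point per gap between neighbouring protein-coding genes. Counts reach 10, in a gap with a core of 0.413 Mb, while 40 cores over 1 Mb hold none.

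The most shared desert regions in 1 gap, 10, lay between Matn1, which encodes a cartilage matrix protein, and Ptpru, which encodes a receptor tyrosine phosphatase (chr4:130955477-131768456). This gap is only 813 kb long, so its core held 24.2 regions per Mb. The 10 regions fell into runs: 4 lay 298 to 315 kb from Matn1, the next 6 between 404 and 281 kb from Ptpru. Their NMDA −log10 p ranged from 40.2 to 419 with a median of 98.0, and 3 of them stood above percentile 90. Strong and weak sites lay next to each other: a region with a value of 337 had a neighbour of 42.3 at a distance of 1.54 kb.

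Sall3, a zinc finger transcription factor gene of development, and Galr1, a receptor gene for the neuropeptide galanin, enclosed 9 regions on chromosome 18. Their signals were high, with a median NMDA percentile of 84.4 and control percentile of 81.8. In the gap between Camk1g, a calcium/calmodulin-dependent kinase gene, and Plxna2, a semaphorin receptor gene, the 6 regions were stronger still, with medians of 92.3 and 89.8. The value of 33.9 of 1 region there, against 140 to 424 in the other 5, shows that a strong gap could still hold a weak site. Mki67, the gene of the proliferation marker Ki-67, and Mgmt, a DNA repair gene, enclosed 7 regions from 29.2 to 431. Tmem132b and Tmem132c, both genes of transmembrane proteins, enclosed 7 at a median of only 38.1, as did Rps24, a ribosomal protein gene, and Zmiz1, a transcriptional coregulator gene, with 7 at 35.8. The gaps that were richest in regions were therefore not alike in signal.

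**Figure D3:**
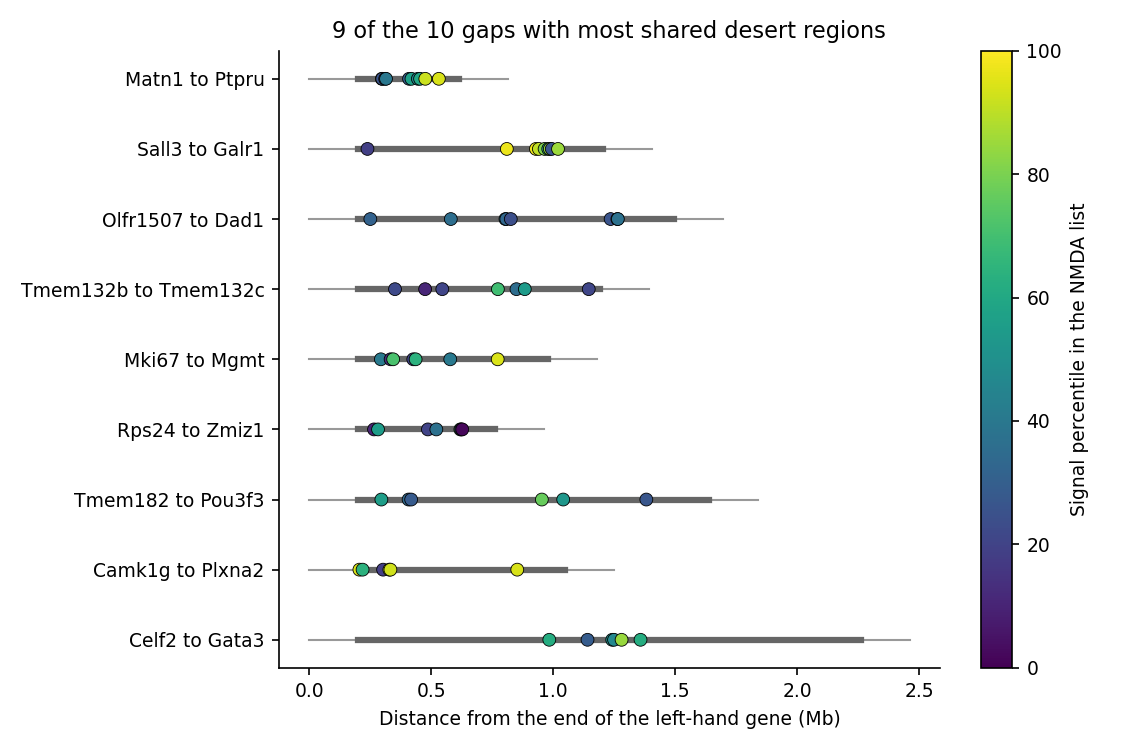
Positions of shared desert regions in 9 of the 10 gaps that held most of them, as the distance in Mb from the end of the left-hand gene, 1 line per gap. Point colour gives the signal percentile in the NMDA list, which is high throughout most of the Camk1g to Plxna2 gap (median 92.3) and low in the Tmem132b to Tmem132c gap (median 22.3).

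Antigen receptor loci, whose gene segments the RefSeq table does not class as protein-coding, lie inside some of the gaps. The Olfr1507 to Dad1 gap on chromosome 14, with 201 segments of the T-cell receptor alpha and delta locus, held 8 shared regions at NMDA values of 40.1 to 62.1. The immunoglobulin heavy chain locus between Adam6a and Zfp386, with 184 segments, held 4 at 23.1 to 66.9. In both, most regions were in the weaker part of the NMDA list, with median percentiles of 34.6 and 27.9. Their median control percentiles were 33.6 and 6.10, so the 4 heavy chain regions ranked lower in control. Leaving out the gaps with such loci is among the alternatives in the closing section.

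Long gaps differed widely in their number of regions. The longest gap with shared regions lay between the protocadherin genes Pcdh20 and Pcdh9, 4.54 Mb with 4 regions at values from 85.7 to 128. Between Olfm4 and Pcdh17, over 4.42 Mb, there were 2, at 203 and 304, and a stretch of 3.59 Mb had no shared region at all. Between Cntnap5b, of the contactin-associated protein family, and the cadherin gene Cdh20, there were 2 in 4.28 Mb, at 40.2 and 71.3, with a stretch of 3.23 Mb free of them. Tenm3 to Aga, of 3.99 Mb, and Celf4 to Pik3c3, of 4.51 Mb, held 6 each, or 1.67 and 1.46 per Mb of core, against a median of 1.01 over cores of at least 1 Mb. The longest gaps without a shared desert region were Suclg1 to Ctnna2 on chromosome 6 (3.41 Mb), which ends at an alpha-catenin gene, Diaph2 to Pcdh19 on X (3.12 Mb) and Cox7c to Edil3 on chromosome 13 (2.77 Mb). The first of these held 1 NMDA-only desert region and in neither of the others was there a desert region of either list.

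At the opposite extreme, the 39.8 kb core between Klf14, a zinc finger transcription factor gene, and Mkln1 held 4 regions, of which all 4 lay inside the span of the lncRNA gene Lncpint. Between the homeobox gene Msx2 and the dopamine receptor gene Drd1 on chromosome 13, 5 regions lay in a core of 178 kb, at NMDA values of 85.4 to 365.

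Genes of development and of neuronal adhesion often flanked these gaps. Of all 21775 protein-coding genes, 1516 (6.96%) bordered a gap of at least 400 kb and 688 (3.16%) bordered one with a shared desert region. Among 140 developmental transcription factor genes, 68 bordered such a gap and 40 (28.6%) one with a region. For cadherins and non-clustered protocadherins, the counts were 22 and 17 (48.6%) of 35, and for synaptic adhesion and organiser genes 42 and 29 (39.7%) of 73. Axon guidance genes (12 of 54, 22.2%), ion channel and receptor genes (16 of 72, 22.2%) and growth factor genes (8 of 57, 14.04%) had lower shares. Ribosomal protein genes were near the background in bordering a long gap, with 5 of 67 (7.46%). One with a region was bordered by 4 of 67 (5.97%), against 3.16% of all genes. Most of the difference between lists lay in how often their genes border a long gap: once a gene did, the share with a region was 45.4% over all genes and 58.8%, 77.3%, 69.0%, 54.5%, 48.5%, 42.1% and 80.0% in the 7 lists, the last on 5 genes. The gaps differed in length too. Their median was 1962 kb for the cadherin list and 1189 kb for synaptic adhesion genes, against 739 kb for all genes. In the other lists it ran from 601 to 1008 kb. Longer gaps have more room for a region, and shares at equal gap length were not tested.

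Individual flanking genes with many regions included Pou3f3, a neuronal POU factor gene (6 in 1.84 Mb), Zeb2, a zinc finger repressor gene (6 in 3.70 Mb), and Gata3, a zinc finger factor gene (6 in 2.46 Mb). Teneurin genes Tenm2 and Tenm3, which encode synaptic adhesion proteins, bordered 6 each, in 3.44 and 3.99 Mb. The cadherin genes Cdh6 and Cdh9 face the same gap, with 4 regions in 3.55 Mb, so they do not count as separate cases. Among axon guidance receptors, Robo1 (1.46 Mb) and Dcc (1.22 Mb) bordered 4 each. The potassium channel gene Kcna4 bordered 6 in 1.77 Mb, while the growth factor genes Bmp2 and Bmp4 bordered 1 each.

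Between the lists, agreement on presence was lower in deserts than elsewhere. Of the 1058 NMDA regions in deserts, 78.0% (Wilson interval 75.4 to 80.4) overlapped a control region, against 84.7% (84.3 to 85.0) of those elsewhere and 84.5% over the whole list. The difference was −6.70 points (Newcombe interval −9.32 to −4.28). Seen from the control list, 86.3% (84.0 to 88.3) of 956 desert regions were shared, against 90.9% elsewhere and 90.8% over the whole list, a difference of −4.62 points (−6.96 to −2.56). The lower share held within signal classes: in the weakest quartile of the NMDA list 42.7% of desert and 50.2% of other regions were shared, a difference of −7.51 points (−13.2 to −1.62), and in the next −6.91 (−11.3 to −3.17). In the upper 2 quartiles nearly all were shared on both sides, with differences of −1.45 and −0.80 points. In the control list the differences were −6.66 and −7.87 points in the lower 2 quartiles, −0.40 (−2.21 to 0.12) in the third and 0 in the fourth. The comparison within quartiles was added after the data had been seen. When sharing required summits within 100 bp, the difference over all desert NMDA regions was −2.41 points (−5.10 to 0.09), an interval that includes 0, and with a reciprocal overlap of 50% it was −3.34 points (−6.03 to −0.85). With every gene type counted as a gene it was −7.16 points (−17.8 to 0.85), over far fewer regions.

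In deserts, regions that only 1 list held ranked low in it. The 233 NMDA-only regions had a median −log10 p of 32.1 and a median percentile of 16.5, and the 131 control-only regions 67.0 and 18.6. Such regions ranked lower still outside deserts, at median percentiles of 12.1 and 9.34. An exception was an NMDA-only region between Lrrc4c and Iftap (chr2:98666946-98667304, 359 bp) with a value of 1490, higher than in any shared desert region. It came almost entirely from the first replicate column, with 1403 against 87.9 in the second. It was also narrower than any shared desert region, the narrowest of which had 386 bp. Regions were not filtered here against sequence prone to artefacts, and whether this value is an artefact was not tested.

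Shared desert regions were of middling strength. Their median percentile was 50.3 (48.1 to 52.5) in the NMDA list and 50.0 (47.1 to 52.2) in the control list, against 58.0 and 55.1 for the other shared regions. The gap was in the strong end: 46 of 825 (5.58%) stood in the top decile of the NMDA list, compared with 12.01% of the others, a difference of −6.43 points (−7.85 to −4.61). The weakest quartile held 14.8% of either set. Beyond 1 Mb from a gene none of the 43 was in the top decile.

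The replicate columns of the NMDA list did not show this equally. A share of 45.0% of the desert regions lay above the median of the first column and 54.9% above that of the second, against 59.4% and 58.8% of the other shared regions. The difference was −14.4 points (−17.8 to −11.0) in the first column and −3.88 (−7.33 to −0.47) in the second. The Spearman correlation between the columns was 0.70 over the desert regions and 0.85 over the others, as a description over regions that share libraries. Median −log10 p was 29.0 in the first and 62.2 in the second column, and 41.3 and 73.1 for the others.

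The strongest shared desert region in the NMDA list lay between the neuropeptide gene Npvf and the transcription factor gene Nfe2l3 (chr6:50936512-50941056). It had a value of 791 (338 and 453) with NMDA and 984 in control, at percentiles 99.3 and 97.8. A pair of strong sites lay between Adamts16, a metalloprotease gene, and the homeobox gene Irx1. The first (chr13:71457724-71459172) had 779 (361 and 418) and 1170, the second (chr13:71104464-71106453) 631 (329 and 302) and 865. A region between Pcmtd1 and Sntg1 (chr1:7396359-7399132) had a lower NMDA value, 600 (228 and 372), but the highest control value of all 825, 1279. The region between Mtx2, a neighbour of the Hoxd cluster, and Hnrnpa3 (chr2:75137419-75139471) is the one at the Gm13652 window above. The other 5 of the 10 strongest, with values from 498 to 570, were 2 in the Sall3 to Galr1 gap and 1 each near Onecut1, Cadm1 and Prkd1. All 10 were above percentile 96 in the NMDA list and above percentile 89 in the control list, so these ranks were similar in both.

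The 5 regions farthest from any gene ranked above the median of the NMDA list, but not all did in control. A pair in the Celf4 to Pik3c3 gap, 2.19 and 2.08 Mb from the nearest gene, had NMDA values of 309 (193 and 116) and 104 (55.8 and 48.5), at percentiles 88.2 and 54.3. The next lay 1.96 Mb from a gene between Pcdh20 and Pcdh9 (chr14:90432319-90433811), with 113 (30.1 and 82.8), and had no other shared region within 1.09 Mb. Those between Pcdh7 and G6pd2 (chr5:59996498-59997511) and between Tenm2 and Mat2b (chr11:38937557-38938976) had 140 and 119. All 5 were above the median of the NMDA list. Their control percentiles, in the order given, were 95.7, 59.0, 39.5, 56.5 and 69.7, so the Pcdh20 to Pcdh9 region was below the median there. As a class, the 43 regions beyond 1 Mb from a gene were at mid-list, with median percentiles of 51.4 with NMDA and 52.8 in control. Over the 825 regions, the Spearman correlation between distance from the gene and NMDA percentile was −0.09, a description only.

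Ranks agreed closely between the conditions. The percentile of 763 of 825 (92.5%) differed by less than 20 points between the lists. It was at least 20 points higher with NMDA for 39 (4.73%), against 5.16% of all shared regions, and at least 20 points lower for 23 (2.79%), against 2.82%. Both shares were close to the background. They depended on the values ranked. With the first replicate column in place of the NMDA value, 9.94% were higher and 16.8% (14.4 to 19.6) lower, against 10.8% and 6.96% of all shared regions, so there the share that was lower exceeded its background. With the second column 7.03% were higher and 3.03% lower, against 6.26% and 4.62%. With lists of equal size the shares were 2.35% and 5.56%, against 2.77% and 4.50%, and with scores of at least 830 they were 8.72% and 1.81%, against 10.8% and 2.61%. The Spearman correlation between the percentiles of the 2 lists was 0.88, and 0.92 for the other shared regions.

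**Figure D4:**
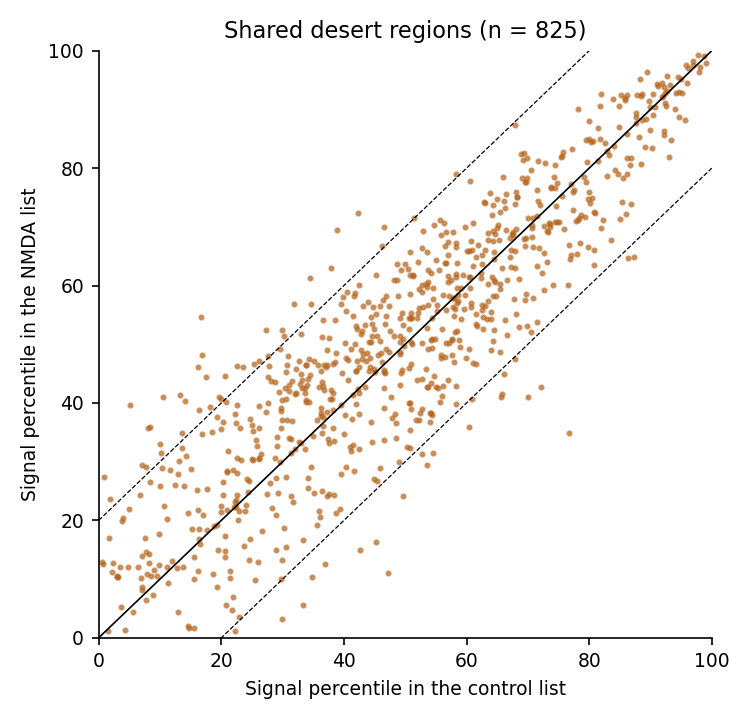
Signal percentile in the NMDA list (vertical axis) against that in the control list (horizontal axis) for the 825 shared desert regions, 1 point per region. Most points lie near the diagonal, with 39 at least 20 points above it and 23 at least 20 points below.

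The regions that shifted most in rank had low to middle ranks in the NMDA list, while those lower with NMDA reached percentile 76.8 in the control list. In the Tmem132b to Tmem132c gap a region (chr5:126733325-126733868) had 105 (54.6 and 50.6) with NMDA and 63.1 in control, so its percentile was 54.6 against 16.6, or 37.9 points higher. One between Ipmk and Zwint (chr10:72391290-72391998) was 34.6 points higher, with 65.2 (22.1 and 43.1) and 43.3. The NMDA list as a whole had a lower median value, 90.9 against 166. Because the 2 lists are not on a common scale, only the percentiles are compared. In the other direction, a region in the Lncpint span (chr6:31188788-31189917) had 55.8 (26.8 and 29.0) with NMDA and 328 in control, 41.9 points lower. Its control region was 2726 bp wide, overlapped 2 NMDA regions and had its summit 1486 bp away, so the values of the 2 lists were taken at different summits. One between Gbe1 and the axon guidance receptor gene Robo1 (chr16:71197531-71198065) had 27.5 (10.4 and 17.2) and 153, 36.0 points lower, with summits 50 bp apart, and the third lowest, near Nedd1, was 29.5 points lower. These regions were picked by their shift, and no replicate spread was available for control.

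Shared desert regions were narrower than the others. Their median width was 1067 bp (1030 to 1109) in the NMDA list and 977 bp in the control list, against 1277 and 1166 bp. Widths over 2000 bp occurred in 30 (3.64%) and in 14.02% of the others, a difference of −10.4 points (−11.5 to −8.83). Since width rises with signal (Spearman correlation 0.67 over the 825), the sets were also compared within signal quartiles of the NMDA list. From weakest to strongest, desert regions had medians of 680, 899, 1235 and 1495 bp, and the others 816, 1014, 1339 and 1727 bp, so they were narrower in each. The widest, at 4545 bp, was the Npvf to Nfe2l3 region, followed by one of 4111 bp between Celf2, an RNA-binding protein gene, and Gata3 (chr2:8673755-8677865). Regions were wider in the NMDA than in the control list in 60.7% of cases, and 61.0% of the others. By distance, the median NMDA width of shared regions fell from 1372 bp within 10 kb outside genes to 1113 bp at 100 to 200 kb. In the desert classes it was 1057, 1119 and 1041 bp, so narrow regions were not particular to deserts.

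At the 100 bp scale, summits agreed more often than in the other shared regions as a whole. The summits of the 2 lists lay within 100 bp of each other in 807 of 825 (97.8%, 96.6 to 98.6), against 92.9% of the other shared regions and 93.1% of all, a difference of 4.89 points (3.62 to 5.74). At 20 bp the shares were alike, 55.8% and 56.0%, and the median distance was 18 bp in both sets. The agreement within 100 bp was not particular to deserts. It was 97.7% at 100 to 200 kb from a gene and 97.7% at 200 to 500 kb. Nearer to genes it was 96.9% at 50 to 100 kb, 96.1% at 10 to 50 kb and 92.2% within 10 kb. Inside gene spans it was 91.7%. Within the weakest signal quartile 93.4% of desert regions and 80.5% of others were within 100 bp, and in the strongest 99.2% and 96.7%. Among regions that pair with exactly 1 region of the other list, which 99.0% of the desert and 95.9% of the other regions do, the difference was 3.81 points (2.59 to 4.61). Among regions outside genes with no other shared region within 50 kb, it was 2.69 points (1.14 to 3.86), with 566 desert and 2070 other regions, and the median widths there were 1033 and 1189 bp. Those subsets were chosen after the data had been seen. Summits over 500 bp apart occurred in 7 desert regions. The largest distance was 1589 bp, in the Mtx2 to Hnrnpa3 gap (chr2:75151922-75153215), where 1 control region of 2509 bp overlapped 2 NMDA regions, as in the Lncpint case above. After that of the Lncpint region came 1308 bp, in a region of 3569 bp between Tenm3 and Aga (chr8:50914611-50918179).

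**Figure D5:**
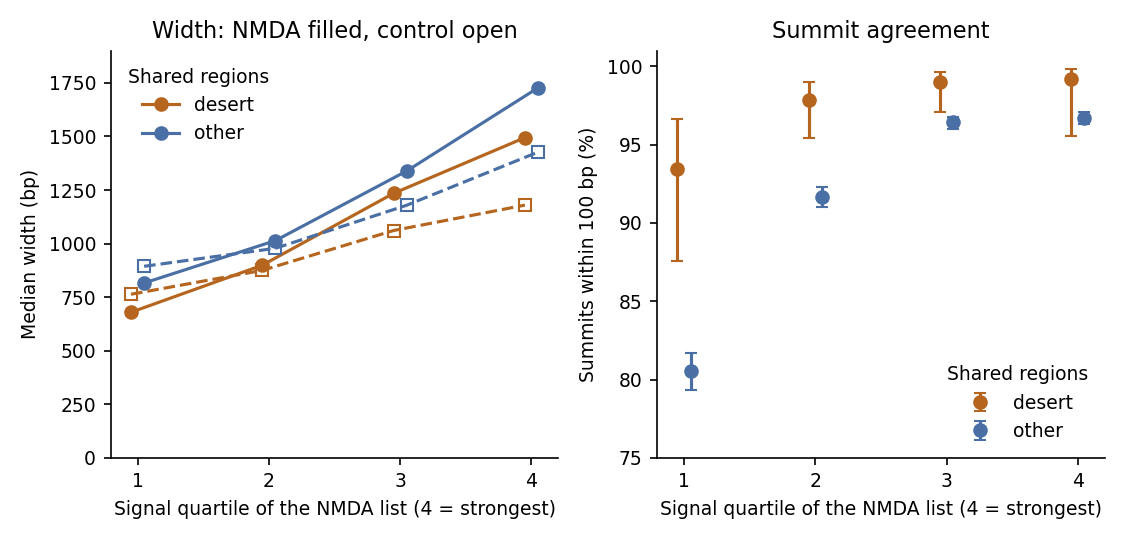
Median width in bp (left, NMDA list filled and control list open) and percent of regions with summits within 100 bp (right) by signal quartile of the NMDA list, for shared desert regions and other shared regions. Desert regions are narrower in each quartile, and their summits agree most distinctly more often in the weakest (93.4% against 80.5%).

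Protein-coding genes were absent by the rule, but lncRNA genes were not, and with every annotated gene type counted only 58 shared regions lay at least 200 kb from a gene. Of the 825 regions, 152 (18.4%) had their summit in a lncRNA span, against 15.3% of the 13297 shared regions lying outside protein-coding genes within 200 kb of one, a difference of 3.11 points (0.53 to 5.96). Fewer lay within 1 kb of a lncRNA end, 36 (4.36%) against 7.44%, a difference of −3.07 points (−4.35 to −1.40). Against the 233 NMDA-only desert regions, of which 16.3% lay in a lncRNA span and 3.00% near an end, the differences were 2.12 points (−3.73 to 7.15) and 1.36 points (−1.93 to 3.59), and both intervals include 0. The genes 1700019L22Rik, Gm34439, Gm40056 and Lncpint held 4 each, and Mir100hg and 4 other lncRNA genes 3 each. Regions in lncRNA spans had a median NMDA percentile of 55.4, and those outside 49.1, with no test made.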

How the data were processed

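CTCF ChIP-seq lists of control and NMDA neurons were used, and the input libraries were not analysed here. The submitters' processing notes name MACS2, BWA, SAMtools, Trimmomatic and FastQC, with builds mm10 and GRCm38.p6, with versions and settings not given in the sources used here. The authors deposited 33820 control and 36193 NMDA regions, which the file names call irreproducible discovery rate output, over both replicates. In these deposited lists the score runs from 540 to 1000. Signal was the −log10 p-value deposited for each region. In the NMDA list it equals the sum of 2 replicate columns, within 0.001, in all 36186 regions used. Which column is which replicate is not stated. Such values grow with depth, so they were ranked within each list only.

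Regions on other scaffolds were left out (5 control, 7 NMDA). Gene spans came from RefSeq (GRCm38.p6): 21883 protein-coding entries, less 108 that end before 3 Mb of a chromosome other than Y and carry scaffold coordinates, where no region lies. Gaps are named by the nearest genes with established names, although a predicted gene model may form the edge. Shares have Wilson and differences Newcombe intervals, and densities exact Poisson intervals. Named regions were the 10 strongest, the 5 farthest from genes, and the 3 with the largest rise, fall, summit distance and width. Named gaps were the 10 with most regions, the 5 longest, the 3 longest without a region and the 3 densest with 3 or more. Up to 4 flanking genes per list were taken. A gap that these rules name is not reported here. Lists, members and rules were chosen with earlier results of these data known. On simulated data, 2000 of 2000 regions were placed rightly and 1593 of 1593 shared regions were found. All simulated regions lay between genes, and shared pairs overlapped nearly fully, so this checked the code only and not marginal overlaps. Python 3.11.15, pandas 2.3.3, NumPy 2.4.6, SciPy 1.17.1 and matplotlib 3.10.9 were used.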

Additional observations from a re-analysis of the deposited data

How the results depend on the processing

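Of 128 values of 11 results under 14 alternatives, 96 stayed close to the value reported and 32 moved. Close meant counts within 1.5 times and other values within their interval. None reversed direction, but most of the results are counts, shares or medians, which have no sign to reverse. The balance of regions at least 20 points higher and lower with NMDA did change sides. It was 4.73% higher and 2.79% lower as reported, but 9.94% and 16.8% with the first replicate column. Equal list sizes (2.35% and 5.56%) and a desert distance of 500 kb (3.32% and 5.21%) changed it too. The other alternatives with both shares had more regions higher than lower. The counts that stayed included 608 regions with scores of at least 830 and 918 without predicted gene models, against 825. No paired analysis was possible because each condition is 1 pooled list, and for the same reason no replicate could be left out. The cause of these moves was not tested. At a desert distance of 100 kb there were 1700 regions, the density ratio of desert to the rest was 0.147 (0.114 as reported) and the median spacing 65517 bp. At 500 kb these were 211, 0.0775 and 199482 bp, the difference in shared percent was −9.73 points and 83.7% of control desert regions were shared. At that distance 5.21% (2.94 to 9.09) of regions were at least 20 points lower with NMDA, above the 2.82% of all shared regions. With every gene type counted as a gene, 58 regions were found, with a difference in shared percent of −7.16 points (−17.8 to 0.85), a ratio of 0.0669, a spacing of 205092 bp, 81.7% of control desert regions shared, a width of 1133.5 bp and 100% of summits within 100 bp. Without predicted gene models the ratio was 0.103. The difference in shared percent was −3.34 points with a reciprocal overlap of 50%. With sharing defined by summits within 100 bp it was −2.41 points (−5.10 to 0.09), an interval that also includes 0. With scores of at least 830 the values were 89.4% of control desert regions shared, a ratio of 0.105, a spacing of 141400 bp, a median control percentile of 45.5, 8.72% at least 20 points higher with NMDA and a width of 1182.5 bp. With lists of equal size the median NMDA percentile was 47.3, with 2.35% higher and 5.56% lower. With the first replicate column it was 46.4, with 9.94% higher and 16.8% lower, and with the second 52.9, with 7.03% higher. The deposited signal-value column holds −1 for each region, so that alternative could not be run. The fits without antigen receptor gaps, with scaffold-coordinate genes and on autosomes were added after seeing the data and moved none of the results computed for them beyond their intervals, and the density ratio was not computed without antigen receptor gaps. Depth is unknown, and region lists say nothing of CTCF below the reproducibility threshold.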
